A study of Mus musculus with 14 samples.

Results

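The core erythroid transcription factors are the DNA-binding proteins and partners that set the red cell programme: Gata1, Tal1, Lmo2, Ldb1, Zfpm1, Nfe2, Gfi1b, Bcl11a, Sox6 and Zbtb7a. They were found as every probe set (short probes read together as 1 measurement of a transcript) whose platform annotation gives exactly 1 of these symbols. This gave 13 probe sets of 10 genes, of 22626 probe sets and 12393 genes in all. Bcl11a, Sox6 and Zfpm1 had 2 probe sets each and the other 7 genes had 1. Expression was measured in primitive erythroid precursors, which form the embryo's earliest red cells, cut by laser from yolk sac sections at embryonic day 9.5.

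Material came from 3 arrays of KLF1-/- embryos (title numbers 5, 6 and 8), 3 arrays labelled KLF1-/- KLF2-/- (13, 14 and 15) and 8 wild-type arrays (1 to 4 and 9 to 12). All embryos are labelled strain FVB/N and genotyped by PCR on the tail, and the mothers were KLF1+/- or KLF1+/- KLF2+/-. Both mutations are present in the whole embryo, so the yolk sac around the captured cells carries them too. A replicate is a pool of 2 to 4 yolk sacs taken over 2 litters, and the labels do not tell if any litter served several replicates, so the p-values measure the spread between these pools. Values are log2 expression values, where 1 unit is a doubling of signal.

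Gata1 is a zinc finger factor that red cell development requires, and Zfpm1 (FOG1) is the cofactor that binds it. Tal1 is a basic helix-loop-helix factor that, through the adaptors Lmo2 and Ldb1, joins Gata1 in a complex that sits on most erythroid enhancers and can loop them to promoters. Nfe2 activates globin genes with a small Maf partner, Gfi1b represses with the CoREST complex, and Bcl11a, Sox6 and Zbtb7a are known in definitive red cells for silencing embryonic and fetal globin genes. KLF1 and KLF2 are related zinc finger factors that bind CACCC elements, and both belong to the same family of transcription activators.

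The stretches before the starts of Gata1, Tal1 and Zfpm1 are shown because Gata1, Tal1 and 1 of the 2 Zfpm1 probe sets (1451046_at) varied closely together from array to array, as the correlations further on give. Each is the 250 bases before the RefSeq start on build GRCm38.p6, written 5′ to 3′ on the gene's strand. Gata1 lies at chrX:7967911-7968160 on the minus strand, Tal1 (1 of its annotated starts) at chr4:115056176-115056425 on the plus strand, and Zfpm1 at chr8:122281891-122282140 on the plus strand. Capitals mark GATAA (or its complement TTATC), the core of a GATA element, and CACCC (or its complement GGGTG), the core of a KLF element.
Gata1: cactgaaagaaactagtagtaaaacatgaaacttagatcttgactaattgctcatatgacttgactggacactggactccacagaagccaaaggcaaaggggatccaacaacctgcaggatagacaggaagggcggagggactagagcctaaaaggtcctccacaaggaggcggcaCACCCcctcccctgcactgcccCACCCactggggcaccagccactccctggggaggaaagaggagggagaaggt
Tal1: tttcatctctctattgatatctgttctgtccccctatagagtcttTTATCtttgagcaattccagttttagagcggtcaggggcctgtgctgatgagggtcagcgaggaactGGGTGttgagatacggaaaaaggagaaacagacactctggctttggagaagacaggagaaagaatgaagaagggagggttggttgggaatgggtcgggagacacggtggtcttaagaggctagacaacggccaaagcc
Zfpm1: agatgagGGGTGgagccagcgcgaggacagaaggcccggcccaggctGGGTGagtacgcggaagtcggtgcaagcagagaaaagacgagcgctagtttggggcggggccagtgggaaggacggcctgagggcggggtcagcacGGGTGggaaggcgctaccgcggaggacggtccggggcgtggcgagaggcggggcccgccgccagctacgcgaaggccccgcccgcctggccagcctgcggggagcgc
The Gata1 stretch held CACCC at 74 and 52 bases before the start and no GATAA. The Tal1 stretch held GATAA at 205 and CACCC at 138 bases before the start, on the opposite strand in each case. The stretch before another annotated Tal1 start, at chr4:115057561-115057810, held neither. The Zfpm1 stretch held CACCC on the opposite strand at 243, 203 and 107 bases before the start and no GATAA. Over 32851 stretches of the same length, searched on both strands, 22.6% held GATAA and 52.0% held CACCC. RefSeq stretches were at hand for 16 starts of 8 members, of which 6 starts held GATAA and 10 held CACCC. Only these counts of starts are like those shares. By gene, where any of its starts counted, 5 held GATAA and 8 held CACCC, and no share over all genes was formed. These letters describe the window and say nothing of binding.

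The targeted genes were read first. Klf1 was 9.53, 9.79 and 9.03 on the KLF1-/- arrays and 9.29, 9.59 and 8.56 on those labelled KLF1-/- KLF2-/-, against 10.05 to 11.82 (median 10.48) on the 8 wild-type arrays, so neither mutant group overlapped wild type. The log2 difference was -1.22 ± 0.35 (SE) for KLF1-/- and -1.52 ± 0.35 for the arrays labelled KLF1-/- KLF2-/-, with adjusted p of 1.00 and 0.525 over all probe sets in limma. Klf2 was 6.72, 7.003 and 6.36 on the arrays labelled KLF1-/- KLF2-/-, against 5.90 to 6.59 in wild type, and so was not lower where its deletion is labelled. The sources used here do not place either probe set relative to the deleted part, so these values do not settle the labels.

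The captured material carried erythroid RNA and RNA of its neighbours. In wild type the brightest erythroid markers were the embryonic globins Hbb-bh1 (14.49), Hbb-y (14.42) and Hba-x (12.74), and the brightest of the other fixed lists were Pf4 (11.21) for megakaryocytes, Ttr (13.82) for visceral endoderm, Col3a1 (11.98) for mesenchyme, Csf1r (9.02) for macrophages, Plvap (8.48) for endothelium and Hdc (8.22) for mast cells. In such bulk material fewer cells of a type and less RNA per cell cannot be told apart. The titles fall into 2 runs of numbers: 1 to 8 hold wild type 1 to 4 and the KLF1-/- arrays, and 9 to 15 hold wild type 9 to 12 and the arrays labelled KLF1-/- KLF2-/-. Each run holds 1 mutant genotype and its own wild-type arrays, so members' values are also given within runs, and the medians of gene lists also with the run as a block. The labels do not say what a run stands for.

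Gata1 (probe set 1449232_at) was higher in KLF1-/- than in the wild-type arrays of the same run and was not called over all probe sets. It was 11.11, 11.32 and 10.85 on the KLF1-/- arrays, against 10.14, 10.55, 10.31 and 10.45 on wild type 1 to 4. It was 11.15, 11.87 and 10.37 on the arrays labelled KLF1-/- KLF2-/-, against 11.73, 10.89, 10.91 and 10.34 on wild type 9 to 12. The KLF1-/- arrays stood above all of wild type 1 to 4, whereas the arrays of the other run overlapped over most of their range. Against all 8 wild-type arrays the groups averaged 11.09 ± 0.23 in KLF1-/-, 11.13 ± 0.75 in the arrays labelled KLF1-/- KLF2-/- and 10.67 ± 0.51 in wild type (SD, n = 3, 3 and 8). The log2 differences were 0.43 (95% interval -0.27 to 1.12) and 0.47 (-0.23 to 1.16), both with a limma adjusted p of 1.00. Within its run the KLF1-/- difference was 0.73 (0.33 to 1.13, unadjusted p 0.0026, adjusted p 1.00), and that of the arrays labelled KLF1-/- KLF2-/- was 0.16 (-0.80 to 1.12). Against all wild type the difference of the arrays labelled KLF1-/- KLF2-/- was 0.096 without array 14 and 0.85 without array 15. With gene-by-gene array weights, chosen after seeing the data, the KLF1-/- difference from all wild type was 0.12.

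Nfe2 (1452001_at), the large subunit of NF-E2, had the largest difference of any member from all 8 wild-type arrays in both mutant genotypes, again without a call. It was 6.92, 7.43 and 6.80 on the KLF1-/- arrays, against 6.57, 6.67, 6.59 and 5.86 on wild type 1 to 4, with no overlap. It was 6.94, 7.70 and 6.28 on the arrays labelled KLF1-/- KLF2-/-, against 7.60, 6.37, 6.34 and 5.85 on wild type 9 to 12, where wild type 9 alone stood among the higher mutant arrays. The log2 differences from all wild-type arrays were 0.57 (-0.16 to 1.30) in KLF1-/- and 0.49 (-0.23 to 1.22) in the arrays labelled KLF1-/- KLF2-/-. Leaving out KLF1-/- array 6 gave 0.38, and for the arrays labelled KLF1-/- KLF2-/- the value was 0.13 without array 14 and 0.84 without array 15. Within runs the differences were 0.63 for KLF1-/-, below those of Gata1 (0.73) and Zfpm1 (0.67 on 1451046_at), and 0.43 for the arrays labelled KLF1-/- KLF2-/-, the last ranging from 0.068 without array 14 to 0.79 without wild type 9. Averaged over both mutant genotypes the difference was 0.53 (-0.05 to 1.11, unadjusted p 0.07, adjusted p 1.00).

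**Figure D1:**
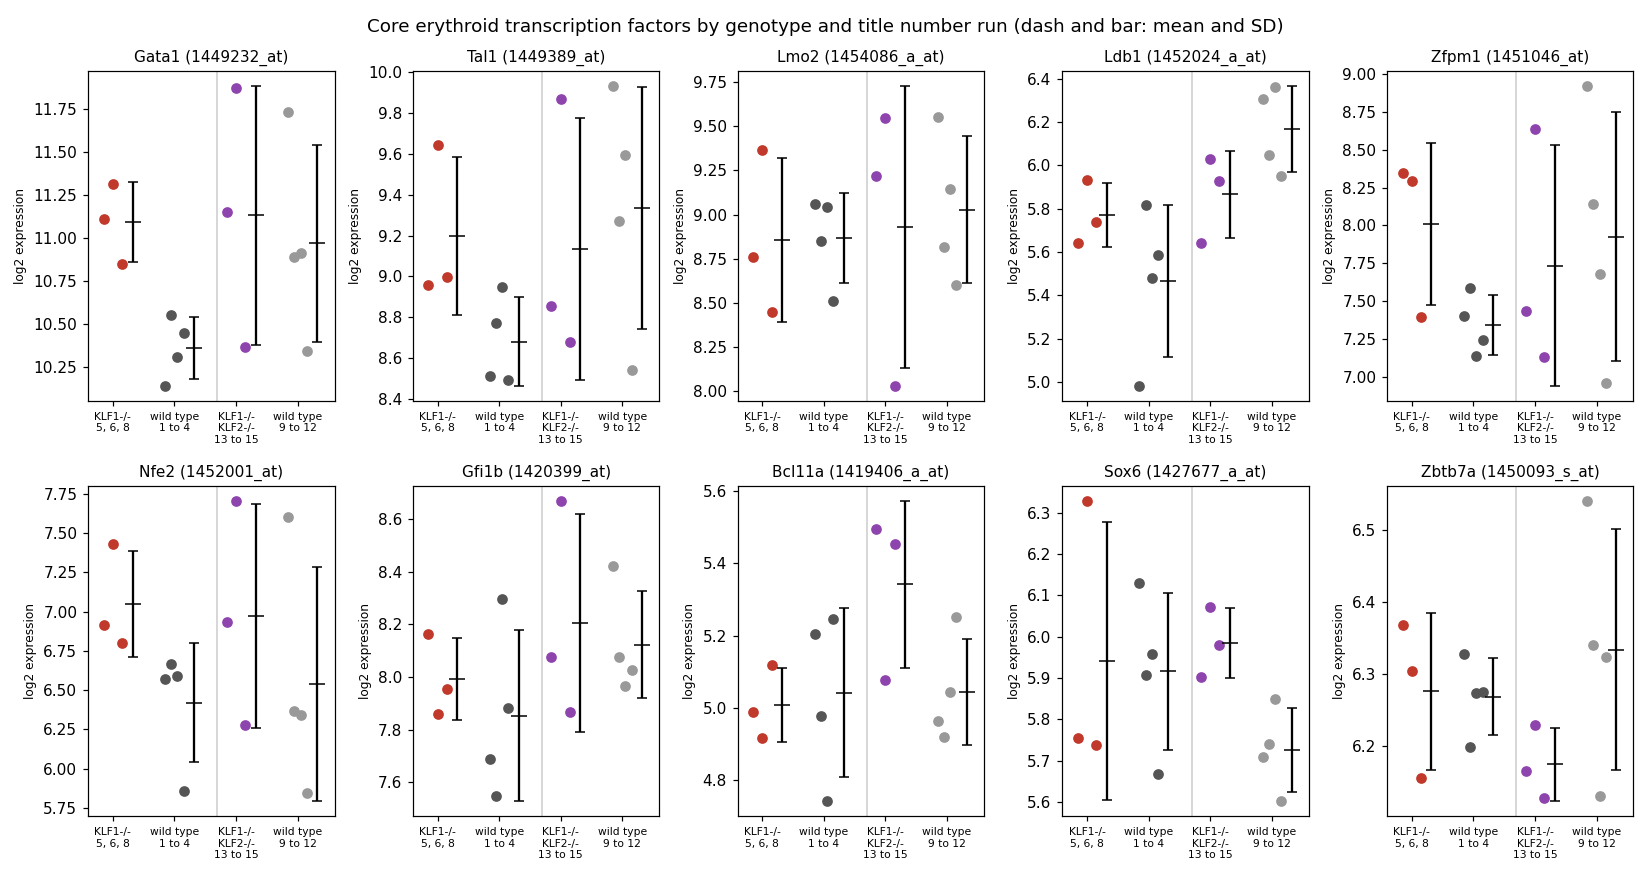
Log2 expression of the brightest probe set of each member on every array. Points are arrays, in the order KLF1-/- (5, 6, 8), wild type 1 to 4, labelled KLF1-/- KLF2-/- (13 to 15) and wild type 9 to 12; dashes and bars are the mean and SD. Gata1, Tal1 and Nfe2 stand above wild type 1 to 4 on all 3 KLF1-/- arrays, and most other groups overlap.

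Tal1 (1449389_at) was 8.96, 9.64 and 8.996 on the KLF1-/- arrays, against 8.52, 8.77, 8.95 and 8.49 on wild type 1 to 4. On the arrays labelled KLF1-/- KLF2-/- it was 8.86, 9.87 and 8.68, against 9.93, 9.27, 9.59 and 8.54 on wild type 9 to 12. The lowest KLF1-/- array stood just above the highest array of wild type 1 to 4, so these groups did not overlap by a narrow margin, and in the other run they overlapped. Against all wild-type arrays the differences were 0.19 (-0.52 to 0.90) and 0.13 (-0.58 to 0.83). Within runs they were 0.52 (0.03 to 1.01) in KLF1-/- and -0.20 (-1.11 to 0.71) in the arrays labelled KLF1-/- KLF2-/-.

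The adaptors of the Tal1 complex gave no such separation within the KLF1-/- run. Lmo2 (1454086_a_at) was 8.76, 9.36 and 8.45 on the KLF1-/- arrays, against 9.06, 8.85, 9.04 and 8.51 on wild type 1 to 4. It was 9.22, 9.55 and 8.03 on the arrays labelled KLF1-/- KLF2-/-, against 9.55, 8.82, 9.14 and 8.60 on wild type 9 to 12, and the groups overlapped in both runs. Its differences from all wild-type arrays were -0.09 (-0.72 to 0.54) and -0.02 (-0.64 to 0.61).
Ldb1 (1452024_a_at) was 5.64, 5.93 and 5.74 on the KLF1-/- arrays, against 4.98, 5.82, 5.48 and 5.59 on wild type 1 to 4. It was 5.64, 6.03 and 5.93 on the arrays labelled KLF1-/- KLF2-/-, against 6.31, 6.05, 6.36 and 5.95 on wild type 9 to 12. Its differences from all wild-type arrays were near 0 (-0.05 and 0.05), and within runs they were 0.30 (-0.18 to 0.79) in KLF1-/- and -0.30 (-0.65 to 0.04) in the arrays labelled KLF1-/- KLF2-/-.

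Zfpm1, the Gata1 cofactor, depended on the probe set. On 1451046_at it was 8.35, 8.29 and 7.39 in KLF1-/-, against 7.399, 7.59, 7.13 and 7.25 on wild type 1 to 4, a difference within the run of 0.67 (0.10 to 1.24, unadjusted p 0.027, adjusted p 1.00). On the arrays labelled KLF1-/- KLF2-/- it was 7.44, 8.64 and 7.13, against 8.92, 8.14, 7.68 and 6.96 on wild type 9 to 12, a difference of -0.19 (-1.38 to 1.00). The other probe set, 1423603_at, lay between 5.35 and 5.85 on all 14 arrays and differed by 0.16 (-0.20 to 0.52) within the KLF1-/- run. The 2 probe sets correlated at r = 0.37 over the 14 arrays, and no per-gene value was formed from them.

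Of the repressors, Gfi1b (1420399_at) was 8.16, 7.86 and 7.95 in KLF1-/-, against 7.69, 7.55, 8.30 and 7.88 on wild type 1 to 4. It was 8.08, 8.67 and 7.87 on the arrays labelled KLF1-/- KLF2-/-, against 8.42, 8.08, 7.96 and 8.03 on wild type 9 to 12. Its differences from all wild-type arrays were 0.01 (-0.41 to 0.42) and 0.22 (-0.20 to 0.63), with overlap in both runs.

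Bcl11a was the member with the smallest unadjusted p in the comparison of the arrays labelled KLF1-/- KLF2-/- with wild type, on 1 of its 2 probe sets. On 1419406_a_at it was 5.50, 5.08 and 5.45 on those arrays, against 4.96, 4.92, 5.04 and 5.25 on wild type 9 to 12. The KLF1-/- arrays had 4.99, 4.92 and 5.12, against 5.20, 4.98, 4.74 and 5.25 on wild type 1 to 4. The difference in the arrays labelled KLF1-/- KLF2-/- was 0.30 (0.02 to 0.58, unadjusted p 0.036, adjusted p 1.00) against all wild type and 0.33 (0.00 to 0.67, unadjusted p 0.0494, adjusted p 1.00) against KLF1-/-. Within the run the difference from wild type was 0.30 (-0.03 to 0.62, limma unadjusted p 0.068). With the run as a block, that from KLF1-/- was 0.33 (-0.13 to 0.79). Both of these intervals included 0. On 1426552_a_at the difference from wild type was 0.00 (-0.30 to 0.31), and the probe sets correlated at r = 0.50 over the 14 arrays. The 16 macrophage markers averaged 6.66 to 6.69 on the arrays labelled KLF1-/- KLF2-/-, 6.33 to 6.38 on the KLF1-/- arrays and 6.27 to 6.71 in wild type, and their part in the Bcl11a values was not tested.

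Sox6 (1427677_a_at) was 5.90, 6.07 and 5.98 on the arrays labelled KLF1-/- KLF2-/-, against 5.71, 5.74, 5.85 and 5.60 on wild type 9 to 12, with no overlap. The difference was 0.26 (0.03 to 0.49, unadjusted p 0.0325, adjusted p 1.00) within that run and 0.16 (-0.14 to 0.47) against all wild-type arrays. In KLF1-/- it was 5.75, 6.33 and 5.74, against 6.13, 5.91, 5.96 and 5.67 on wild type 1 to 4, and the groups overlapped. The other Sox6 probe set, 1426018_a_at, ranged from 4.05 to 4.55 over all arrays, with differences from wild type of 0.01 and 0.03. Zbtb7a (1450093_s_at), also known as LRF, ranged from 6.13 to 6.54 over all arrays. Its differences from wild type were -0.03 (-0.23 to 0.18) in KLF1-/- and -0.13 (-0.33 to 0.08) in the arrays labelled KLF1-/- KLF2-/-, the narrowest intervals of any member.

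In limma 0 of the 13 probe sets were called in KLF1-/- against wild type, where 0.0265% of all probe sets were called, and 0 in the arrays labelled KLF1-/- KLF2-/- against wild type, where 0.0221% were. At an unadjusted p under 0.05 these comparisons held 0 and 1 members, beside 1.92% and 2.11% of all probe sets. Averaging both mutant genotypes gave 0 calls among members, with 0.0707% of all probe sets called, and 0 members at an unadjusted p under 0.05, with 2.76% of all. The arrays labelled KLF1-/- KLF2-/- minus KLF1-/- gave 0 calls among members and 0% of all, with 1 member and 0.628% at an unadjusted p under 0.05. The largest upper bound of a member's interval was 1.30 for KLF1-/- and 1.22 for the arrays labelled KLF1-/- KLF2-/-, and the lowest lower bounds were -0.72 and -0.75, while the intervals of other members, such as Zbtb7a, were narrower. The median difference of the 13 probe sets was 0.01 for KLF1-/- and 0.10 for the arrays labelled KLF1-/- KLF2-/-, beside 0.01 and 0.00 over all probe sets. Differences above 0 were found for 8 and 10 of the 13, beside 51.9% and 51.7% of all probe sets. Within runs the median was 0.14 for KLF1-/- and -0.02 for the arrays labelled KLF1-/- KLF2-/-, beside -0.01 and 0.02 over all probe sets, and 9 and 6 of the 13 were above 0, beside 47.8% and 55% of all. The comparisons with wild type share their wild-type arrays and are not independent of each other.

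Within numbers 1 to 8, KLF1-/- against wild type gave 0 member calls (0.00442% of all probe sets called) and 4 members at an unadjusted p under 0.05, Gata1, Tal1, Zfpm1 and Nfe2, beside 1.88% of all probe sets. All 3 KLF1-/- arrays were above all of wild type 1 to 4 for 3 members, Gata1, Tal1 and Nfe2, beside 1.56% of all probe sets. Within numbers 9 to 15, the arrays labelled KLF1-/- KLF2-/- gave 0 member calls (0.0177% of all) and 1 member at an unadjusted p under 0.05, Sox6, beside 3.54%. Sox6 was also the 1 member above all of wild type 9 to 12, beside 2.89% of all probe sets. Against all 8 wild-type arrays no member separated fully from wild type in either mutant genotype, beside 0.283% of probe sets higher and 0.23% lower in KLF1-/- and 0.393% higher and 0.305% lower in the arrays labelled KLF1-/- KLF2-/-.

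With the number run as a block, the differences became 0.73 (0.01 to 1.45) for Gata1, 0.52 (-0.20 to 1.23) for Tal1, 0.67 (-0.26 to 1.59) for Zfpm1 and 0.63 (-0.22 to 1.48) for Nfe2 in KLF1-/-. In the arrays labelled KLF1-/- KLF2-/- they became 0.16, -0.20, -0.19 and 0.43. Ldb1 moved from -0.05 to 0.30 in KLF1-/- and from 0.05 to -0.30 in the arrays labelled KLF1-/- KLF2-/-. Each run holds 1 mutant genotype, so these block differences equal the within-run differences by construction. Only their intervals and p-values differ, and they are not a second line of evidence. None was called, with 0.00884% and 0.0265% of all probe sets called under the block. Under the block the arrays labelled KLF1-/- KLF2-/- minus KLF1-/- gave -0.57 for Gata1 (-1.58 to 0.45) and -0.61 for Ldb1 (-1.17 to -0.04, unadjusted p 0.0374, adjusted p 1.00), where the fit without the block gave 0.04 and 0.10. That fit rests on the wild-type arrays of each run, since no run holds both mutant genotypes.

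**Figure D2:**
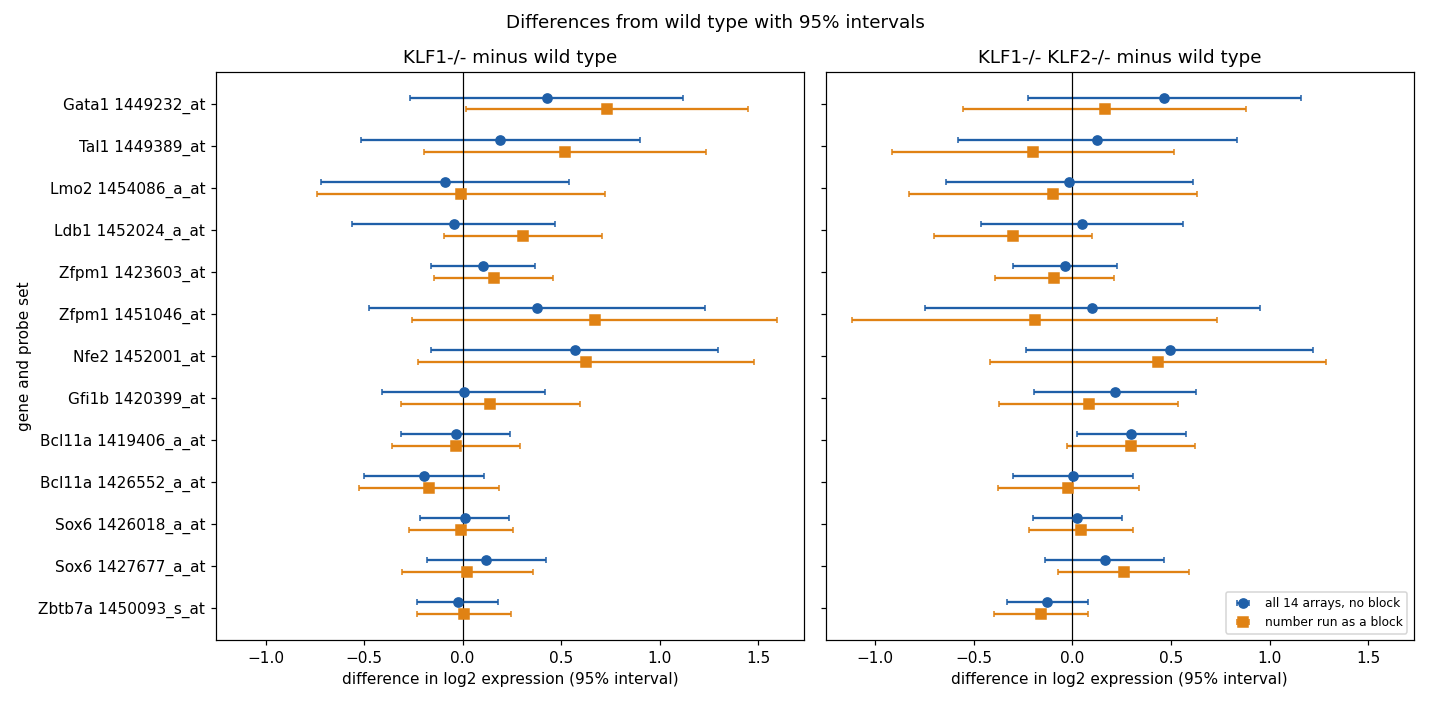
Differences in log2 expression of the 13 probe sets from wild type, KLF1-/- on the left and labelled KLF1-/- KLF2-/- on the right, with 95% intervals. Circles use all 14 arrays and squares add the number run as a block, which gives the within-run differences. For Gata1, Tal1, Ldb1 and Zfpm1 (1451046_at) the block moves the KLF1-/- value up and the other value down, and the remaining probe sets move less.

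For Gata1, Tal1, Ldb1 and Zfpm1 (1451046_at), the wild-type arrays of the runs differed from each other by more than either mutant genotype did from all wild-type arrays, with no call in either case. Wild type 9 to 12 minus wild type 1 to 4 was 0.70 for Ldb1 (0.28 to 1.13), 0.65 for Tal1 (0.04 to 1.27), 0.61 for Gata1 (0.02 to 1.19) and 0.58 for Zfpm1 (-0.22 to 1.39), while for Nfe2 it was 0.12 (-0.68 to 0.92). In limma 0 members and 0% of all probe sets were called, the smallest adjusted p of a member was 0.639, and 3 members had an unadjusted p under 0.05 beside 7.13% of all. Ldb1 was above all of wild type 1 to 4 on every one of wild type 9 to 12, beside 1.12% of probe sets. Klf1, the targeted gene itself, differed between these wild-type groups by 0.88 (0.25 to 1.51). The 11 measured erythroid markers averaged 10.74 to 11.73 per array on wild type 9 to 12 and 10.39 to 10.90 on wild type 1 to 4, and their part in these values was not tested.

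Gata1, Tal1, Nfe2 and Zfpm1 (1451046_at) varied together from array to array, across genotypes. Lmo2 followed them nearly as closely, and Ldb1 only in part. Over the 14 arrays Gata1 correlated with Zfpm1 (1451046_at) at r = 0.88, with Tal1 at 0.87 and with Nfe2 at 0.84, and Tal1 with Zfpm1 at 0.84. Lmo2 correlated with Nfe2 at 0.74, with Tal1 at 0.72 and with Gata1 at 0.68, beside 0.76 for Tal1 with Nfe2. Ldb1 correlated with Tal1 at 0.69, with Gata1 at 0.57, with Nfe2 at 0.21 and with Lmo2 at 0.20. With genotype means removed, Lmo2 correlated with Nfe2 at 0.88, and Gata1 with Nfe2 at 0.80. The other Zfpm1 probe set, 1423603_at, correlated with Gata1 at 0.32 and with Tal1 at 0.13. No correlations over all probe sets were set beside these. These are descriptions, since all members share the same arrays. The arrays labelled KLF1-/- KLF2-/- 14, wild type 9 and KLF1-/- 6 were the highest 3 for Gata1, Tal1, Lmo2 and Nfe2, so 1 array of each group led. They were also among the arrays with the widest spread of values: the interquartile range of all log2 values was 3.12 on KLF1-/- 6, 2.84 on labelled KLF1-/- KLF2-/- 14 and 2.77 on wild type 9, within 2.31 to 3.12 over all arrays. With genotype means in the model, the slope on this range was called for 7 of the 13 probe sets, beside 56.1% of all probe sets. A called slope thus did not set the members apart from other probe sets. It was positive for Gata1, Tal1, Lmo2, Zfpm1 (1451046_at), Nfe2 and Sox6 (1427677_a_at), between 0.52 and 1.65 log2 units per unit of range, and negative for Bcl11a (1426552_a_at), at -0.57. The range is computed from the same arrays' values, members included, and was examined after the values were seen.

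**Figure D3:**
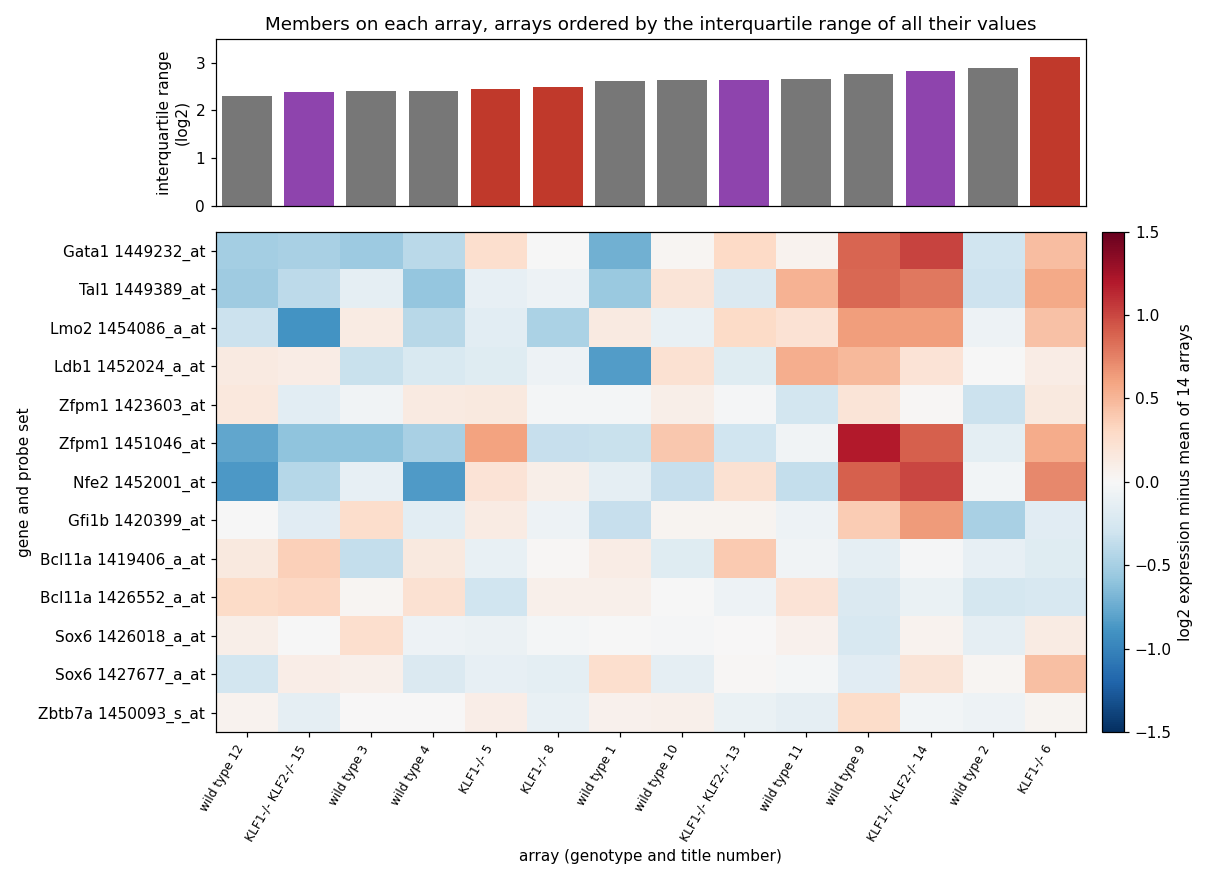
Each member probe set on each array as log2 expression minus its mean over 14 arrays (colour), with the arrays ordered by the interquartile range of all their values (bars above, log2 units; red KLF1-/-, purple labelled KLF1-/- KLF2-/-, grey wild type). Gata1, Tal1, Lmo2 and Nfe2 are highest towards the right, on wild type 9, labelled KLF1-/- KLF2-/- 14 and KLF1-/- 6, while wild type 2, with a range of 2.89, is not high.

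The 2 genes whose 14-array pattern was most like that of each member were ranked by Pearson's r. Uros (r = 0.94) and Eif3f (0.94) were nearest to Gata1, Urod (0.95) and Pmpca (0.94) to Tal1, Fech (0.95) and Tspan32 (0.95) to Nfe2, and Alas2 (0.92) and Ppp1r15b (0.92) to Ldb1. Noct and Kat2b (both 0.94) were nearest to Lmo2, Taf6 (0.93) and Cars (0.91) to Zfpm1, Slc41a1 (0.89) and Exoc7 (0.84) to Gfi1b, and Dnmt3b (0.91) and Tnfaip2 (0.91) to Sox6. Bcl11a was nearest to Csf1r (0.84), the macrophage growth factor receptor, and Casp12 (0.79), and Zbtb7a to Grin2d (0.72) and Mettl22 (0.71). These are the highest of 12393 genes and describe likeness only.

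Of 98 measured genes on 7 lists of partners, relatives and targets, limma called 0 in each comparison with wild type. The genes with an unadjusted p under 0.05 numbered 12 for KLF1-/- and 16 for the arrays labelled KLF1-/- KLF2-/-, beside 1.92% and 2.11% of all probe sets. These counts use each gene's brightest probe set and include the targeted gene Klf1. The shares are over all probe sets, dim ones included, so the 2 are not like for like. Of 17 measured partners of the GATA1-TAL1 complex (19 listed), 11 were above 0 for KLF1-/- and 9 for the arrays labelled KLF1-/- KLF2-/-, with medians of 0.06 and 0.00 (0.08 and -0.04 with the run as a block). Ssbp2, which binds and stabilises Ldb1, was 0.70 ± 0.32 and 0.85 ± 0.32 (SE) above wild type, both with an adjusted p of 1.00. E2f4, a cell cycle factor found with the complex, was -0.22 ± 0.10 in KLF1-/-, and Ldb2, the relative of Ldb1, 0.42 ± 0.23 in the arrays labelled KLF1-/- KLF2-/-. Over both mutant genotypes Lyl1, the close relative of Tal1, differed by 0.40 ± 0.18.

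For the 8 NF-E2 partners and rivals, small Maf and Bach proteins among them, medians were 0.04 and -0.02 (0.06 and 0.00 with the block). Mafk, the small Maf partner of Nfe2, was -0.20 ± 0.10 in the arrays labelled KLF1-/- KLF2-/-, and Bach2 was 0.20 ± 0.11 there and 0.08 ± 0.11 in KLF1-/-, while Maff was -0.13 ± 0.16 in KLF1-/-. Of 21 measured subunits of NuRD, CoREST and other repressor complexes (24 listed), 18 were above 0 for KLF1-/- and 14 for the arrays labelled KLF1-/- KLF2-/-, with medians of 0.11 and 0.03 (0.05 and 0.12 with the block). The NuRD subunit Mta3 was 0.45 ± 0.23 and 0.69 ± 0.23, the NuRD ATPase Chd4 0.60 ± 0.47 in KLF1-/-, and Mta1 0.22 ± 0.14 in the arrays labelled KLF1-/- KLF2-/-. For the 18 other blood lineage factors medians were -0.00 and 0.05 (-0.06 and 0.15 with the block). Hhex, a homeobox factor of early blood and endothelium, was 0.45 ± 0.19 and 0.79 ± 0.19, with adjusted p of 1.00 and 0.59, Gfi1, the relative of Gfi1b, 0.27 ± 0.09 in the arrays labelled KLF1-/- KLF2-/-, and Etv6 -0.24 ± 0.16 in KLF1-/-.

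The erythroid genes that GATA1 binds and activates, from textbook knowledge, lay below wild type at the median, while Gata1 itself lay above without a call. Of 25 measured (32 listed), 7 were above 0 for KLF1-/- and 10 for the arrays labelled KLF1-/- KLF2-/-, with medians of -0.22 and -0.33 beside 0.01 and 0.00 over all probe sets. With the block these medians were -0.07 and -0.36. Many of these genes are also known targets of KLF1, and the list includes the targeted gene Klf1 itself, at -1.22 and -1.52. Adult beta globin Hbb-b2 was -2.92 ± 0.52 in KLF1-/- (adjusted p 0.133) and -1.92 ± 0.52 in the arrays labelled KLF1-/- KLF2-/- (limma adjusted p 0.788). Its probe set can share signal with near-identical beta globin copies. Dematin (Dmtn), a protein of the red cell membrane skeleton, was -1.11 ± 0.25 and -1.15 ± 0.25, with adjusted p of 0.542 and 0.388. Under the block of number runs it fell by 1.49 in the arrays labelled KLF1-/- KLF2-/- (adjusted p 0.045). Of 11 genes repressed by GATA1, 7 were above 0 in each comparison, with medians of 0.09 and 0.12 (0.04 and 0.21 with the block), and Myc was -0.46 ± 0.24 and -0.88 ± 0.24 (adjusted p 1.00 and 0.788). Of 6 measured globins (9 listed), Hbb-y, an embryonic beta globin, differed by -0.04 ± 0.09 and 0.04 ± 0.09. Its wild-type mean of 14.42 was close to the highest value of any probe set, 14.71, so a change there may not be seen.

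**Figure D4:**
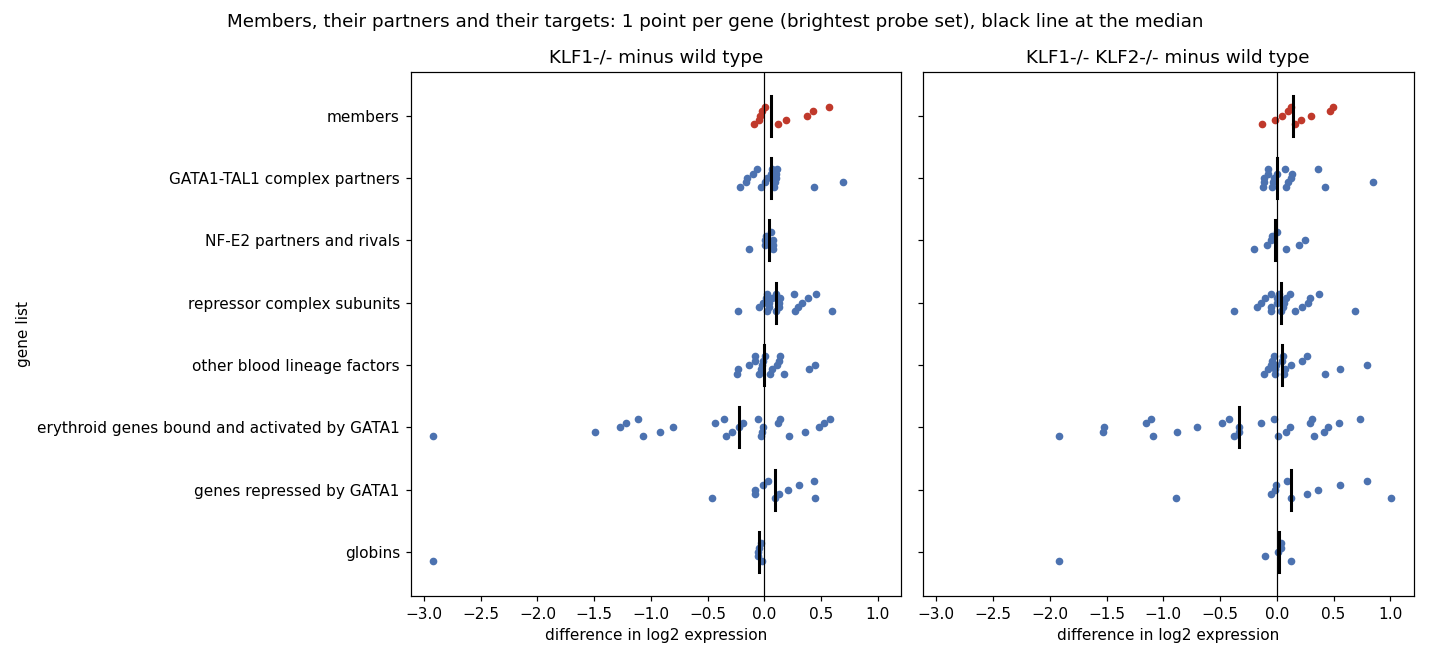
Differences in log2 expression from wild type for the members (red) and 7 lists of their partners, relatives and targets (blue), 1 point per gene at its brightest probe set and a black line at each median. KLF1-/- is on the left and labelled KLF1-/- KLF2-/- on the right; the list of genes activated by GATA1 has medians of -0.22 and -0.33, and the 10 members 0.06 and 0.15 (0.22 and -0.01 with the block, not drawn).

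Marker levels of other cell types are set beside these values. The 14 measured megakaryocyte markers (18 listed), of cells that also use Gata1, Tal1, Zfpm1, Nfe2 and Gfi1b, averaged 7.17 to 7.43 per array in KLF1-/- and 7.32 to 7.78 in the arrays labelled KLF1-/- KLF2-/-, against 6.87 to 7.25 in wild type. The 11 erythroid markers averaged 10.38 to 10.57 and 10.15 to 10.99, against 10.39 to 11.73 in wild type. Visceral endoderm markers averaged 10.35 to 10.86 and 10.28 to 10.51, against 9.77 to 11.27. No defining marker of these lists can be called absent on this log2 scale, which has no zero, and the part of megakaryocyte or other cells in the members' differences was not tested.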

How the data were processed

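The authors deposited log2 expression values per probe set, and GCOS, RMA, affy and limma are named, unversioned, in the submitters' processing notes. RMA corrects background, normalizes arrays to each other and combines probes, and it compresses differences between weak signals. Per the labels' protocols, 8 µm sections were captured and 10 to 20 ng of RNA was amplified in 2 cycles primed at the poly(A) tail.

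The deposited values were used unchanged. Of 22690 probe sets, 64 controls were left out. In limma 3.58.1 (R 4.3.3) genotype means were fitted over the 14 arrays, two-sided, and p-values were adjusted over 22626 probe sets by the Benjamini-Hochberg method, with a call at an adjusted p under 0.05. The number run contrast used the 8 wild-type arrays. The script was tested on simulated data. Lists used each gene's brightest probe set.

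All members and probe sets are named, with the called genes of each list or else those of smallest p, the 3 brightest markers, and the 2 genes most like each member. Members and lists were chosen with earlier results of these data known. The small number of arrays limits precision. Sequences are from RefSeq (GRCm38.p6), and Python 3.11.15 with pandas 2.3.3 and matplotlib 3.10.9 wrote the tables and figures.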

Additional observations from a re-analysis of the deposited data

Results flagged for a closer look

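Nfe2 on wild-type array 9 was flagged as far from the other wild-type arrays: it was 7.601 on the log2 scale, the highest of 8, and its gap to the next array made up 0.531 of the whole range, above Dixon's critical value of 0.526. Of 15 probe sets examined over the wild-type arrays, this was the 1 flagged, and chance flags about 1 in 20 groups. Gata1, Tal1, Lmo2 and Zfpm1 (1451046_at) were also highest among wild type on array 9, at 11.73, 9.93, 9.55 and 8.92, and none of these was flagged.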

How the results depend on the processing

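Member calls were 0 in 136 of 137 counts, each for 1 comparison under 1 alternative setting or with 1 array left out. That tally leaves out the planned default array weights, given below. The exception was Bcl11a (1419406_a_at) at 0.45 in the arrays labelled KLF1-/- KLF2-/- against wild type (adjusted p 0.0115) with gene-by-gene array weights. Alternatives other than leaving out 1 array gave 562 member values. Of these, 511 kept their direction and side of the threshold and 50 changed sign, none of the 50 called. The cause of these changes was not tested. Some of the 562 could not change sign. The brightest probe set per gene, the dim filter and the intensity trend with robust prior leave each difference unchanged. They can move only the calls. The block leaves the averaged difference unchanged. A block value for 1 mutant genotype against wild type equals its within-run value, so a change of sign counts under both. The 511 thus overstates how stable the signs are. The planned default array weights did not converge (weights 0.167 to 92.97) and their fit is not used, though it made 0, 3, 5 and 1 member calls beside 1494, 4704, 13656 and 716 calls in all over KLF1-/- minus wild type, labelled KLF1-/- KLF2-/- minus wild type, labelled KLF1-/- KLF2-/- minus KLF1-/- and both mutants averaged minus wild type. The gene-by-gene weights, the interquartile range as a covariate and the block with quantile normalization were chosen after seeing the data. The dim filter leaves out 4 member genes (by brightest probe set), which have no value there. No paired analysis was possible because the genotypes share no title numbers, and the block used here is the number run. Signal near the middle of the scale or below, as for Bcl11a, Sox6, Ldb1, Zbtb7a and Zfpm1 on 1423603_at, limits what can be resolved. This holds for Nfe2 too, with a wild-type mean of 6.48 beside a median of 6.62 over all probe sets.

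With the number run as a block, KLF1-/- minus wild type gave 2 probe sets called, Ldb1 0.30 and Zbtb7a 0.0075, while labelled KLF1-/- KLF2-/- minus wild type gave 1 list gene called, Tal1 -0.20, Ldb1 -0.30 and Zfpm1 -0.19. Under the same setting, labelled KLF1-/- KLF2-/- minus KLF1-/- gave Gata1 -0.57, Lmo2 -0.090, Ldb1 -0.61 and Gfi1b -0.058, while both mutants averaged minus wild type gave 3 list genes called. With array weights estimated gene by gene, KLF1-/- minus wild type gave 16 probe sets called, 1 list gene called, Tal1 -0.18, Zfpm1 -0.17, Gfi1b -0.032, Bcl11a 0.066 and Sox6 -0.0052, while labelled KLF1-/- KLF2-/- minus wild type gave 1 member called, 627 probe sets called, 17 list genes called, Tal1 -0.26, Lmo2 0.25, Ldb1 -0.30, Zfpm1 -0.32 and Bcl11a 0.45. With that choice, labelled KLF1-/- KLF2-/- minus KLF1-/- gave 4 probe sets called, Ldb1 -0.033 and Nfe2 0.11, while both mutants averaged minus wild type gave 102 probe sets called, 9 list genes called, Tal1 -0.22, Ldb1 -0.28 and Zfpm1 -0.25. Under the same setting, wild type 9 to 12 minus 1 to 4 gave Bcl11a -0.054, while KLF1-/- minus wild type within numbers 1 to 8 gave Bcl11a 0.021, Sox6 -0.17 and Zbtb7a -0.054. With that choice, labelled KLF1-/- KLF2-/- minus wild type within numbers 9 to 15 gave Lmo2 0.14. Within numbers 1 to 8 alone, KLF1-/- minus wild type gave 1 probe set called, Ldb1 0.30 and Zbtb7a 0.0075. With the number run as a block and quantile normalization together, KLF1-/- minus wild type gave Ldb1 0.32 and Zbtb7a 0.017, while labelled KLF1-/- KLF2-/- minus wild type gave 12 probe sets called, 3 list genes called, Tal1 -0.27, Ldb1 -0.30 and Zfpm1 -0.22. Under the same setting, labelled KLF1-/- KLF2-/- minus KLF1-/- gave Gata1 -0.72, Lmo2 -0.14, Ldb1 -0.62 and Gfi1b -0.050, while both mutants averaged minus wild type gave 39 probe sets called and 5 list genes called. With quantile normalization, KLF1-/- minus wild type gave Gfi1b -0.054, while labelled KLF1-/- KLF2-/- minus wild type gave 9 probe sets called. With that choice, labelled KLF1-/- KLF2-/- minus KLF1-/- gave 1 probe set called, while both mutants averaged minus wild type gave 31 probe sets called and 4 list genes called. With 1 brightest probe set per gene, labelled KLF1-/- KLF2-/- minus wild type gave 8 probe sets called, while labelled KLF1-/- KLF2-/- minus KLF1-/- gave 1 probe set called. Under the same setting, both mutants averaged minus wild type gave 2 list genes called. Without dim probe sets, labelled KLF1-/- KLF2-/- minus wild type gave 8 probe sets called, while labelled KLF1-/- KLF2-/- minus KLF1-/- gave 1 probe set called. With that choice, both mutants averaged minus wild type gave 3 list genes called. With an intensity trend and robust prior, labelled KLF1-/- KLF2-/- minus wild type gave 10 probe sets called, while both mutants averaged minus wild type gave 2 list genes called. With the interquartile range as a covariate, labelled KLF1-/- KLF2-/- minus wild type gave 21 probe sets called, while labelled KLF1-/- KLF2-/- minus KLF1-/- gave Tal1 0.026 and Nfe2 0.031. Likewise, both mutants averaged minus wild type gave 47 probe sets called, 6 list genes called and Ldb1 -0.028, while KLF1-/- minus wild type within numbers 1 to 8 gave Sox6 -0.046. Within numbers 9 to 15 alone, labelled KLF1-/- KLF2-/- minus wild type gave Tal1 -0.20, Ldb1 -0.30 and Zfpm1 -0.19. With Gapdh 3′ excess as covariate, labelled KLF1-/- KLF2-/- minus KLF1-/- gave Nfe2 0.0055, while KLF1-/- minus wild type within numbers 1 to 8 gave Sox6 -0.067 and Zbtb7a -0.015.

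Leaving out 1 array at a time gave 780 member values, of which 74 changed sign, and the smallest adjusted p of a member was 0.186. A difference could not move where the array left out belonged to neither of its groups. Without KLF1-/- array 6 or array 8 the KLF1-/- count was 2, without labelled KLF1-/- KLF2-/- array 13 or array 14 that group's count was 1, and the averaged count was 6 without KLF1-/- array 5, labelled KLF1-/- KLF2-/- array 13 or wild-type array 10 or 11 and 25 without wild-type array 9. In the arrays labelled KLF1-/- KLF2-/- against wild type, leaving out array 14 gave the lowest and leaving out array 15 the highest Gata1, Tal1, Lmo2, Zfpm1, Nfe2 and Gfi1b values. Where a sign or a count moved, the values ranged as follows. In KLF1-/- minus wild type the ranges were 2 to 7 probe sets called, Tal1 -0.032 to 0.32, Lmo2 -0.34 to 0.12, Ldb1 -0.17 to 0.032, Gfi1b -0.081 to 0.071, Bcl11a -0.091 to 0.011, Sox6 -0.074 to 0.22 and Zbtb7a -0.071 to 0.035. In labelled KLF1-/- KLF2-/- minus wild type the ranges were 1 to 7 probe sets called, Tal1 -0.24 to 0.35, Lmo2 -0.32 to 0.43, Ldb1 -0.070 to 0.16, Zfpm1 -0.35 to 0.40 and Gfi1b -0.016 to 0.39. In labelled KLF1-/- KLF2-/- minus KLF1-/- the ranges were 0 to 1 probe sets called, Gata1 -0.33 to 0.42, Tal1 -0.43 to 0.16, Lmo2 -0.24 to 0.52, Zfpm1 -0.73 to 0.026, Nfe2 -0.44 to 0.27, Gfi1b -0.021 to 0.38 and Sox6 -0.057 to 0.24. In both mutants averaged minus wild type the ranges were 6 to 25 probe sets called, 0 to 1 list genes called, Tal1 -0.025 to 0.29, Lmo2 -0.21 to 0.17, Ldb1 -0.12 to 0.080 and Gfi1b -0.0054 to 0.20. In wild type 9 to 12 minus 1 to 4 the ranges were Lmo2 -0.013 to 0.30, Nfe2 -0.24 to 0.35, Bcl11a -0.10 to 0.070 and Zbtb7a -0.0036 to 0.13. In KLF1-/- minus wild type within numbers 1 to 8 the ranges were Lmo2 -0.26 to 0.20, Bcl11a -0.13 to 0.034, Sox6 -0.17 to 0.13 and Zbtb7a -0.038 to 0.068. In labelled KLF1-/- KLF2-/- minus wild type within numbers 9 to 15 the ranges were Gata1 -0.21 to 0.54, Tal1 -0.57 to 0.027, Lmo2 -0.41 to 0.35, Zfpm1 -0.64 to 0.14 and Gfi1b -0.15 to 0.25.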
